A study of Homo sapiens with 12 samples.

Results

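The basal epithelial keratins KRT5, KRT6A, KRT6B, KRT14, KRT15, KRT16 and KRT17, together with TP63, were examined in 3 established human prostate cell lines. These 8 genes were taken by symbol from the 58302 genes of the deposited expression table, and each symbol matched 1 row. The group was chosen by its FPKM levels in these same 12 libraries, high in one line and near 0 in others, so the differences of its members between lines are given as descriptions and carry no test. BPH-1 is a benign prostate line that was immortalised with SV40 large T antigen, while DU145 and PC3 are PCa lines from metastases. Each line gave 4 libraries of total RNA, all 3 lines are labelled wild type, and all were kept in DMEM with fetal bovine serum, penicillin and streptomycin. Each group is therefore a single cell line, and nothing in the labels says whether its 4 libraries came from separate cultures, so that the p-values below measure the spread between libraries only.

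Keratins are the intermediate filament proteins of epithelial cells, and each filament is built from pairs of a type I and a type II chain. In the prostate gland a basal layer that carries p63, KRT5 and KRT14 lies under luminal cells that carry KRT8 and KRT18, and loss of the basal layer is what pathologists look for in PCa. TP63 encodes p63, a transcription factor that maintains the basal layer of stratified epithelia and is known to drive KRT5 and KRT14. KRT6A, KRT6B, KRT16 and KRT17 are the keratins that stratified epithelium switches on after wounding or stress.

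Depth lay between 12950757 and 16309967 reads per library, as recovered from the steps of the deposited FPKM values (reads scaled to gene length and library depth). KRT8 and KRT18 were read in every library of all 3 lines, at means between 19.7 and 69.0 FPKM. The epithelial adhesion genes CDH1 (E-cadherin) and EPCAM were at 28.4 and 60.8 FPKM in BPH-1, but at 0.18 and 0.376 FPKM in DU145 and at 0.786 and 9.1 FPKM in PC3, so that both were close to absent from DU145. VIM, which encodes the mesenchymal filament protein vimentin, was at 1.25 FPKM in BPH-1, 61.9 FPKM in DU145 and 121 FPKM in PC3.

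For a limited set of genes, DU145 replicates 1 and 2 stood apart from DU145 replicates 3 and 4. Over 11115 genes the libraries grouped otherwise. Their chi-square per gene, which is larger the more 2 libraries differ, was 49.6 for replicates 1 and 3 and 30.9 for replicates 2 and 4. It was 181 for replicates 1 and 2 and 249 for replicates 3 and 4. PTPRC, which encodes the leukocyte surface protein CD45, was at 1.35 and 1.25 FPKM in DU145 replicates 1 and 2, at 1.15 to 1.54 FPKM in BPH-1, and at 0 reads in the other 6 libraries. LYZ (lysozyme) had the same form, with 326 and 365 reads in DU145 replicates 1 and 2, 308 to 400 reads in the BPH-1 libraries, 0 reads in DU145 replicates 3 and 4, and 1 to 6 reads in PC3. A search made after these values were seen found 33 genes with at least 20 reads in each of DU145 replicates 1 and 2 and at most 1 read in each of replicates 3 and 4, against 5 genes with the opposite form. All 33 had at least 10 reads in every BPH-1 library, and among them were the granulocyte genes MNDA and FCGR3B. Of the 33, 18 had at most 1 read in every PC3 library, and the others had more than that in some PC3 library. The 14 immune and endothelial markers summed to 15.5 to 21.1 FPKM in BPH-1, 5.32 to 16.0 FPKM in DU145 and 9.06 to 17 FPKM in PC3. Of the 14, 13 were above 0 in some library of BPH-1, 13 in DU145 and 10 in PC3, and the T cell marker CD3E was at 0 in every library. Where these genes came from was not tested, and the ratio of BPH-1 to DU145 of each gene below is given for all 4 DU145 libraries and for replicates 3 and 4 alone, a choice made after the data were seen.

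In BPH-1 KRT5, KRT6A, KRT14 and KRT17 were read at means of 116 to 213 FPKM and TP63 at 12.9 FPKM, while none of these 5 genes had a mean above 0.282 FPKM in either PCa line. KRT6B, KRT15 and KRT16 were lower in BPH-1, at means of 1.31 to 8.04 FPKM. All 8 genes were lower in every DU145 library than in every BPH-1 library, whereas 30.6% of the 17016 genes tested in that comparison lay below BPH-1 in this way. In PC3 7 of the 8 lay below BPH-1 without overlap, beside 38.6% of 16408 genes. The exception was KRT15, whose PC3 and BPH-1 libraries overlapped. In either direction, 59.5% of genes in DU145 and 64.4% in PC3 were separated from BPH-1 in this way. Because these contrasts chose the genes, nothing is read from the counts. In bulk RNA, fewer cells that carry a transcript and less of it per cell cannot be told apart. The 7 keratins summed to 521 to 779 FPKM in the BPH-1 libraries, against 0.621 to 2.12 FPKM in DU145 and 1.14 to 2.71 FPKM in PC3.

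**Figure D1:**
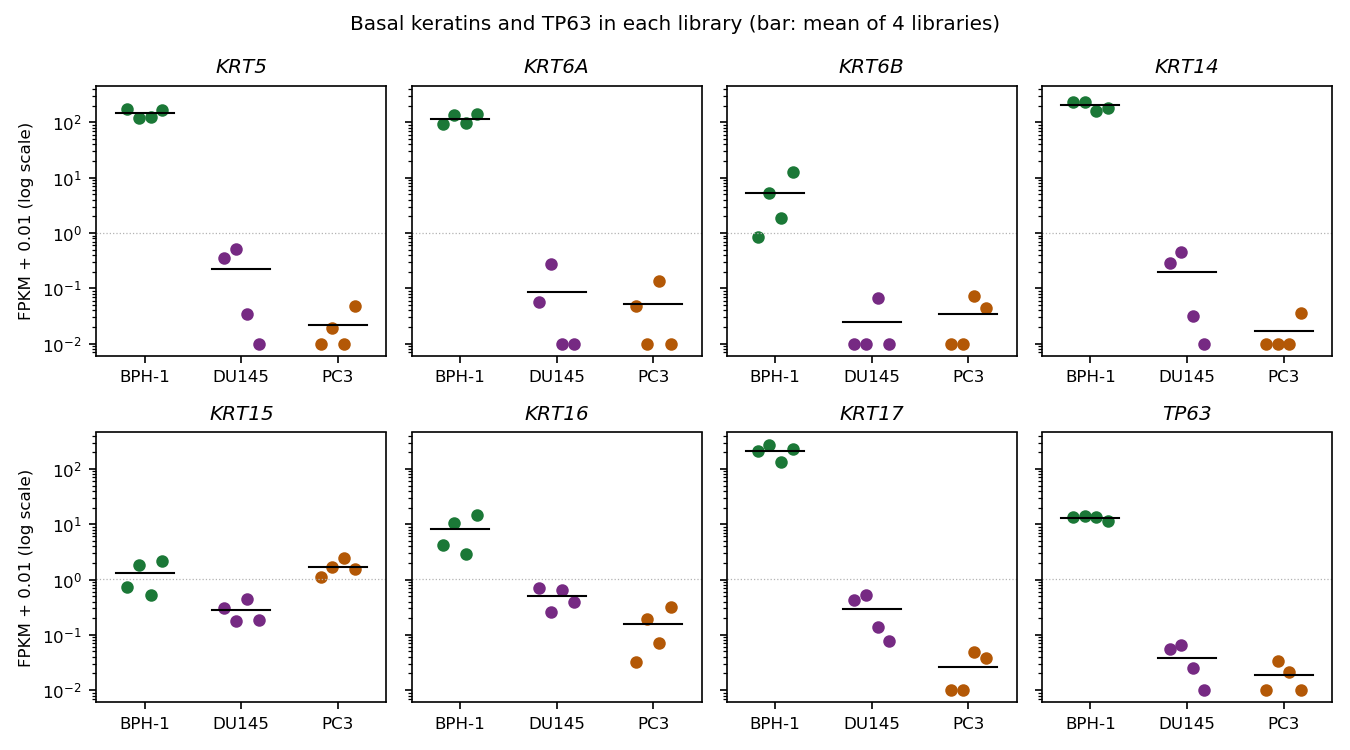
Levels of the 7 basal keratins and TP63 in each of the 12 libraries. The y axis is FPKM + 0.01 on a log scale, each point is 1 library, each bar is the mean of 4 libraries and the dotted line marks 1 FPKM. The BPH-1 points lie above both PCa lines in every panel except KRT15, where PC3 reaches 2.42 FPKM and BPH-1 2.17 FPKM.

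TP63, on the plus strand of chromosome 3 (GRCh38, chr3:189631416-189897279), was at 13.5, 13.8, 13.3 and 11.2 FPKM in the 4 BPH-1 libraries, a mean of 12.9 ± 1.18 FPKM (SD, n = 4). It was at 0.0446, 0.0542, 0.0156 and 0 FPKM in DU145 and at 0, 0.0234, 0.0116 and 0 FPKM in PC3. BPH-1 was thus high in all 4 libraries, and the other lines held a handful of reads each, 23 in DU145 and 6 in PC3 against 9954 in BPH-1. Relative to depth, TP63 was 430-fold higher in BPH-1 than in DU145 (95% exact interval 286 to 678) and 1440-fold higher than in PC3 (659 to 3910). These intervals, here and below, cover counting error only. Of the 23 DU145 reads, 20 came from replicates 1 and 2 and 3 from replicates 3 and 4, and over replicates 3 and 4 alone the ratio was 1550 (530 to 7510). TP63 had the steadiest level of the 8 genes over the BPH-1 libraries, with a coefficient of variation of 9.13%, inside the middle range (8.89% to 21.8%) of the 10361 protein-coding genes with a BPH-1 mean of at least 1 FPKM. The table gives 1 value per gene, so the full-length and ΔN forms of p63, which start from different promoters and differ in their first domain, could not be separated.

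TP73 encodes p73, a relative of p63. TP73 was at 0.528 to 1.26 FPKM in BPH-1 and at no more than 0.0229 FPKM in any library of DU145 or PC3, so that both p63 and p73 transcripts were near the limit of detection in the PCa lines. Its log2 fold change on the log2(FPKM + 1) scale was -0.96 in DU145 and -0.97 in PC3, both from limma with n = 4 libraries per line. TP73 passed the read filter through BPH-1 alone and could only be called lower, so no p-value is given.

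KRT5 and KRT14 form the type II and type I chains of the basal cell filament. KRT5 (chr12:52514575-52520687, minus strand) was at 175, 120, 123 and 170 FPKM in BPH-1, a mean of 147 ± 29.6 FPKM (SD, n = 4), and ranked 73 among 19817 protein-coding genes there. In DU145 it was at 0.342, 0.499, 0.024 and 0 FPKM, and in PC3 at 0, 0.00899, 0 and 0.0381 FPKM. All BPH-1 libraries were far above the rest, and within DU145 the reads sat in replicates 1 and 2, which held 111 of the 114. Relative to BPH-1, KRT5 was 642-fold lower in DU145 (interval 535 to 779) and 12800-fold lower in PC3 (5470 to 39300). Over DU145 replicates 3 and 4 alone KRT5 had 3 reads, and the ratio of BPH-1 to them was 11500 (3930 to 55600).

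The promoter of KRT5 is shown because p63 is known to act on this gene. KRT5 and TP63 were high and low in the same lines, but the genes were chosen by that pattern, so nothing is read from it. RefSeq (GRCh38.p14) gave a promoter window, 250 bases before to 50 bases after the start, for 2 of the 8 genes, KRT5 and TP63. The 250 bases before the KRT5 start (chr12:52520395-52520644, minus strand) hold 1 match to the half-site that p63 is known to bind, in capitals, which begins 97 bases before the start:
KRT5: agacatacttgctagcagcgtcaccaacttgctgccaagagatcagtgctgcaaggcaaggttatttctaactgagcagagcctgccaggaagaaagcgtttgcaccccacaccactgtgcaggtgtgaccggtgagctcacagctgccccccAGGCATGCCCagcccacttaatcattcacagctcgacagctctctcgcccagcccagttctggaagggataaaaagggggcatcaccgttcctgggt
Such a match was present in 6.63% of the 35116 promoter windows of that table, and the TP63 window held 0 of them. The TP63 window lies at the most upstream start of that gene, so the start of the ΔN form was not searched. The KRT5 window ends at the RefSeq start, whereas the deposited coordinates of KRT5 reach further upstream, to 52520687. In those coordinates the printed bases lie inside the gene. The AP-1 motif TGANTCA, found in 7.71% of windows, was in neither, nor was GGGCGG, found in 45%. TATAAA, found in 11.5%, was in the TP63 window alone, where it begins 44 bases after the start and not before it. Close variants of TATAAA were not searched. Both strands were searched for each motif. A match is a run of letters and not evidence of binding, and no binding was measured here.

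KRT14 (chr17:41582279-41586921, minus strand) was at 238, 232, 162 and 179 FPKM in BPH-1, a mean of 203 ± 37.8 FPKM (SD, n = 4). DU145 had 0.275, 0.442, 0.0222 and 0 FPKM, and PC3 had 0 FPKM in 3 libraries and 0.0265 FPKM, or 1 read, in replicate 4. No gene of the group had a lower total in PC3. With 1 read the ratio of BPH-1 to PC3 was 31600, and its counting interval ran from 5670 to 1250000. KRT14 was 1040-fold lower in DU145 than in BPH-1 (interval 744 to 1490), and 34 of its 35 DU145 reads came from replicates 1 and 2. Replicates 3 and 4 held 1 read, which gives a ratio of 17000 with a counting interval of 3060 to 673000. The FPKM of KRT5 was 0.518 to 0.948 times that of KRT14 in the BPH-1 libraries, so that KRT14 was above its partner in every library on the deposited scale.

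KRT15 is a type I keratin of basal cells that can also pair with KRT5, and it was the gene that departed from the rest. Its gene (chr17:41513743-41522529, minus strand) was at 0.727, 1.82, 0.513 and 2.17 FPKM in BPH-1, at 0.296, 0.169, 0.443 and 0.173 FPKM in DU145, and at 1.08, 1.66, 2.42 and 1.51 FPKM in PC3. PC3 overlapped BPH-1, and both lay above DU145 in every library. The means were 1.31 ± 0.813 FPKM in BPH-1, 0.27 ± 0.13 FPKM in DU145 and 1.67 ± 0.56 FPKM in PC3 (SD, n = 4 each). Relative to depth, KRT15 was 4.8-fold lower in DU145 than in BPH-1 (interval 4.17 to 5.55) and 6.16-fold higher in PC3 than in DU145 (5.36 to 7.11). Unlike KRT5 and KRT14, its DU145 reads were spread over the libraries, with 107 in replicates 1 and 2 and 130 in replicates 3 and 4, and against replicates 3 and 4 alone BPH-1 was 4.12-fold higher (3.43 to 4.98). In PC3 KRT15 had the highest mean of the 8 genes, rank 8033 among protein-coding genes, while in BPH-1 its mean was the lowest.

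KRT6A (chr12:52487174-52493257, minus strand), the main wound-induced type II keratin, was at 93.4, 135, 96.0 and 139 FPKM in BPH-1, a mean of 116 ± 24.6 FPKM (SD, n = 4). It had 20 reads in DU145, 3 in replicate 1 and 17 in replicate 2, and 9 reads in PC3, 2 in replicate 1 and 7 in replicate 3. BPH-1 libraries were again far above the rest, of which DU145 replicates 3 and 4 and PC3 replicates 2 and 4 were at 0. The ratio of BPH-1 to DU145 was 1410 (interval 913 to 2310) and that of BPH-1 to PC3 was 2730 (1440 to 5980). DU145 replicates 3 and 4 held 0 reads of KRT6A, which puts BPH-1 at least 4420-fold higher when the floor is 3 reads over both libraries.

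KRT6B (chr12:52446651-52452126, minus strand) encodes a second, nearly identical chain, but its level was low and uneven. BPH-1 had 0.824, 5.28, 1.86 and 12.9 FPKM, a mean of 5.22 ± 5.47 FPKM (SD, n = 4). DU145 had 2 reads, both in replicate 3, and PC3 had 3 reads. The BPH-1 libraries were widely spread, with replicate 4 high and replicate 1 low, and the lowest of them still lay above every DU145 and PC3 library. The ratio of BPH-1 to DU145 was 367, with a counting interval of 101 to 3030, and that of BPH-1 to PC3 was 213 (72.7 to 1040). Against DU145 replicates 3 and 4 alone, which hold both DU145 reads, it was 172 (47.6 to 1430), so for KRT6B the ratio was lower without replicates 1 and 2.

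KRT6A, KRT6B and KRT6C (a further copy between them) are so alike that reads can be assigned to the wrong one, and a stretch of their coding sequence is shown for that reason. Over 1695 aligned coding bases KRT6A and KRT6B were 97.5% identical, with 43 differing bases, and the longest run without a difference was 269 bases. The 60 coding bases of exon 2 in which the copies differ most are given below from GENCODE 29 (GRCh38, all on the minus strand), at chr12:52491555-52491614 for KRT6A, chr12:52450439-52450498 for KRT6B and chr12:52472099-52472158 for KRT6C, with capitals for bases that differ from KRT6A:
KRT6A: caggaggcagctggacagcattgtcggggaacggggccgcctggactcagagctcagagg
KRT6B: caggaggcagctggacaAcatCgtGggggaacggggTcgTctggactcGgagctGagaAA
KRT6C: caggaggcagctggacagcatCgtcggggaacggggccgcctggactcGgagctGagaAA
KRT6B differed from KRT6A at 9 of these bases and KRT6C at 5. Of all stretches of 100 bases in the KRT6B transcript, 24.6% were found in a transcript of another gene, and 18.2% of those of KRT6A. At 50 bases the shares were 47.1% and 39.1%. The KRT6B reads came to 0.508%, 2.24%, 1.12% and 5.35% of the KRT6A reads in BPH-1 replicates 1 to 4, and how many of them belong to KRT6A was not tested. KRT6C reads were 0.508% to 1.0% of them, and in replicate 1 KRT6B (29 reads) and KRT6C (30 reads) were level, so the lowest KRT6B value is the least certain.

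KRT16 and KRT17 are the type I partners of the KRT6 chains. KRT16 (chr17:41609778-41615899, minus strand) was at 4.23, 10.6, 2.89 and 14.4 FPKM in BPH-1, a mean of 8.04 ± 5.43 FPKM (SD, n = 4). It was at 0.683, 0.244, 0.643 and 0.381 FPKM in DU145 and at 0.0219, 0.186, 0.0613 and 0.307 FPKM in PC3. The BPH-1 libraries lay above all others, and DU145 and PC3 overlapped. KRT16 was 16.4-fold lower in DU145 (interval 13.5 to 20.2) and 56.1-fold lower in PC3 (38.5 to 85.4) than in BPH-1. Its DU145 reads were even, 53 in replicates 1 and 2 and 53 in replicates 3 and 4, against which BPH-1 was 15.4-fold higher (11.7 to 20.7), and it had the highest mean of the 8 genes in DU145.

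KRT17 (chr17:41619437-41624842, minus strand), a keratin of basal and wounded epithelium, had the highest mean of the group in BPH-1. It was at 212, 273, 135 and 232 FPKM there, a mean of 213 ± 57.8 FPKM (SD, n = 4) and rank 48 among protein-coding genes. DU145 had 0.423, 0.509, 0.129 and 0.0672 FPKM and PC3 had 0, 0, 0.039 and 0.0278 FPKM. All 3 lines were separated without overlap, although the DU145 and PC3 values that border each other stand for 5 and 3 reads. KRT17 was 724-fold lower in DU145 (595 to 890) and 12600-fold lower in PC3 (5410 to 38900) than in BPH-1. DU145 replicates 1 and 2 held 84 of its 100 DU145 reads, and against replicates 3 and 4 alone BPH-1 was 2130-fold higher (1310 to 3720).

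The type I genes also share sequence, and the most alike coding stretch of KRT14, KRT16 and KRT17 shows how far. It lies in exon 1 (GENCODE 29, GRCh38, minus strand), at chr17:41586424-41586483 for KRT14, chr17:41612272-41612331 for KRT16 and chr17:41624192-41624251 for KRT17, with capitals for a base that differs from KRT14:
KRT14: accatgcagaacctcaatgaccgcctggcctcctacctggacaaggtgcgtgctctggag
KRT16: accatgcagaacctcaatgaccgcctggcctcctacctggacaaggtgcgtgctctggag
KRT17: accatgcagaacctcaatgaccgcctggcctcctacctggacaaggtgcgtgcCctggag
Over the whole coding sequence KRT14 was 86.6% identical to KRT16, 85.2% to KRT17 and 73% to KRT15. Of the 100-base stretches, 5.95% of KRT14, 7.18% of KRT16, 0.322% of KRT17 and 0% of KRT15 and TP63 occurred in another gene's transcript, and of the 50-base stretches 23.8%, 22%, 16%, 0.725% and 0% did so, so that KRT15 and TP63 shared least at either length. The KRT16 reads were 2.15%, 5.52%, 2.15% and 9.76% of the KRT14 reads in BPH-1 replicates 1 to 4. The pseudogene KRT17P2 held 0.601% to 0.646% of the KRT17 reads in every BPH-1 library and 0 FPKM in DU145 and PC3. The pseudogene KRT16P6 held 72, 50, 40 and 74 reads in BPH-1 replicates 1 to 4, which is 31.3%, 8.77%, 25.3% and 9.32% of the KRT16 reads, so the share was larger in replicates 1 and 3, where KRT16 was lower. Whether KRT17P2 reads belong to KRT17, KRT16P6 reads to KRT16, or KRT16 reads to KRT14, was not tested.

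The BPH-1 libraries were not uniform across the group. KRT6B, KRT15 and KRT16 were each highest in replicate 4 and then in replicate 2, with coefficients of variation of 105%, 62.1% and 67.6%, against a median of 13.6% over expressed protein-coding genes. KRT5, KRT14, KRT6A and KRT17 varied less, by 18.6% to 27.2%. KRT6A was also highest in replicate 4 and then in replicate 2, and KRT17 in replicate 2 and then in replicate 4, whereas KRT5 was highest in replicates 1 and 4 and KRT14 in replicates 1 and 2. The 32 genes of terminal squamous differentiation, which include involucrin and the small proline-rich proteins, summed to 79.0, 263, 91.5 and 315 FPKM in BPH-1 replicates 1 to 4. That sum was thus also highest in replicates 4 and 2, while the 31 basal genes linked to p63 summed to 2090, 2160, 2070 and 2000 FPKM. What set replicates 2 and 4 apart was not tested.

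**Figure D2:**
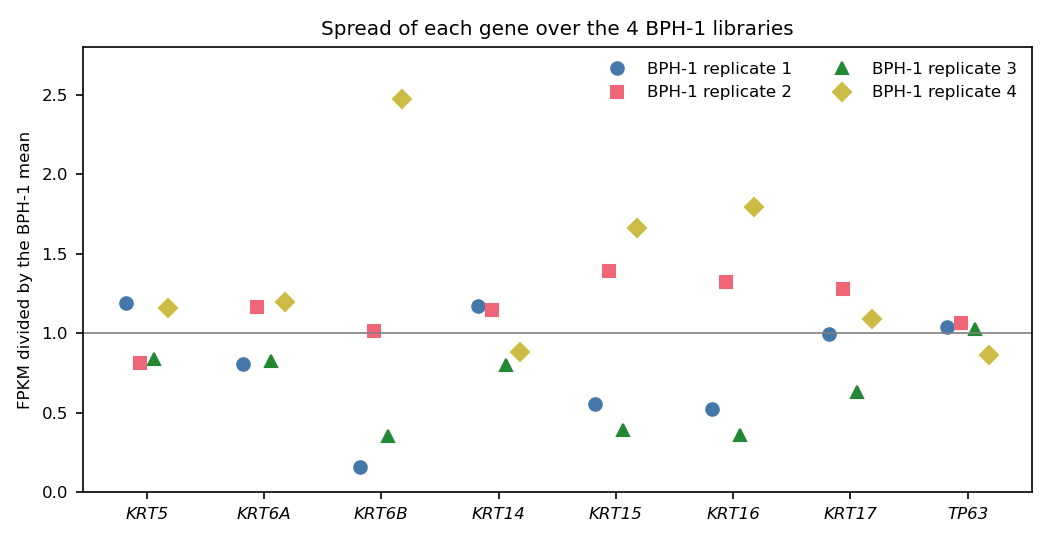
Spread of each gene over the 4 BPH-1 libraries. The y axis is FPKM divided by the mean of the 4 BPH-1 libraries, with 1 symbol per library. KRT6B, KRT15 and KRT16 are lowest in replicates 1 and 3 and highest in replicate 4, whereas TP63 stays close to its mean of 12.9 FPKM.

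The order of the 8 levels in BPH-1 depended on the gene length used. On the deposited scale it was KRT17, KRT14, KRT5, KRT6A, TP63, KRT16, KRT6B and KRT15. The ranges of neighbouring genes overlapped at each step except between KRT6A (93.4 to 139 FPKM) and TP63 (11.2 to 13.8 FPKM). The deposited values divide by a length in which overlapping exons of a gene count more than once. With overlapping exons merged, KRT5 rose to 278 FPKM and passed KRT14 at 259 FPKM, KRT17 stayed first at 377 FPKM, and KRT6A at 157 FPKM had a range (127 to 188 FPKM) below that of KRT14 (208 to 304 FPKM). In DU145 the means ran from 0.488 FPKM for KRT16 to 0.0142 FPKM for KRT6B with neighbouring ranges overlapping throughout. In PC3 KRT15 stood alone above KRT16, and below them the values rested on 9 reads or fewer per gene.

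**Figure D3:**
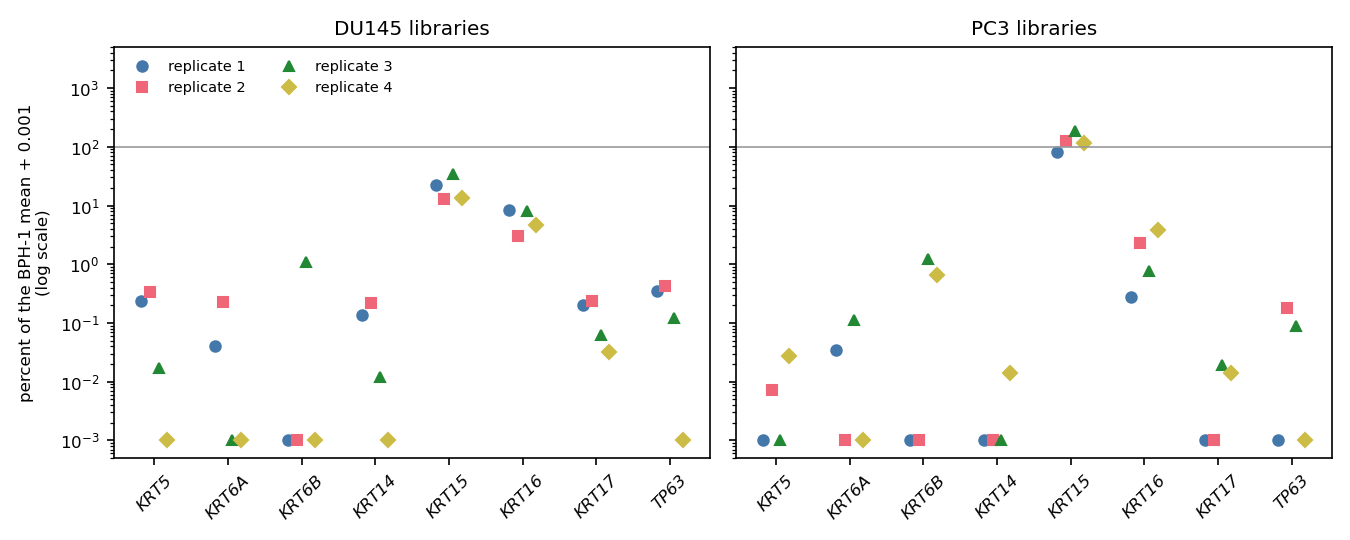
Level of each gene in the PCa lines relative to BPH-1. The y axis is the FPKM of a library as a percent of the BPH-1 mean, with 0.001 added, on a log scale; the grey line marks 100%. KRT15 lies near the line in PC3, KRT15 and KRT16 are the highest in DU145, and KRT5, KRT6A, KRT14, KRT17 and TP63 are higher in DU145 replicates 1 and 2 than in replicates 3 and 4.

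Between the PCa lines themselves few values could be compared. KRT15 and KRT16 alone of the 8 genes passed the filter of 10 reads in 4 libraries. KRT15 was above DU145 in every PC3 library and KRT17 below, and the other 6 genes overlapped. Over all 16420 genes tested, 19.1% lay above and 27.5% below in this way, 46.5% in all. KRT5 had 5 reads in PC3 and 114 in DU145, of which 111 were in replicates 1 and 2, and TP63 had 6 reads in PC3 and 23 in DU145, of which 20 were in those replicates. With those libraries left out, the difference of the mean log2(FPKM + 1) (PC3 minus DU145) was -0.01 for KRT14 against -0.22 with all libraries, and it was 1.01 for KRT15 against 1.05.

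**Figure D4:**
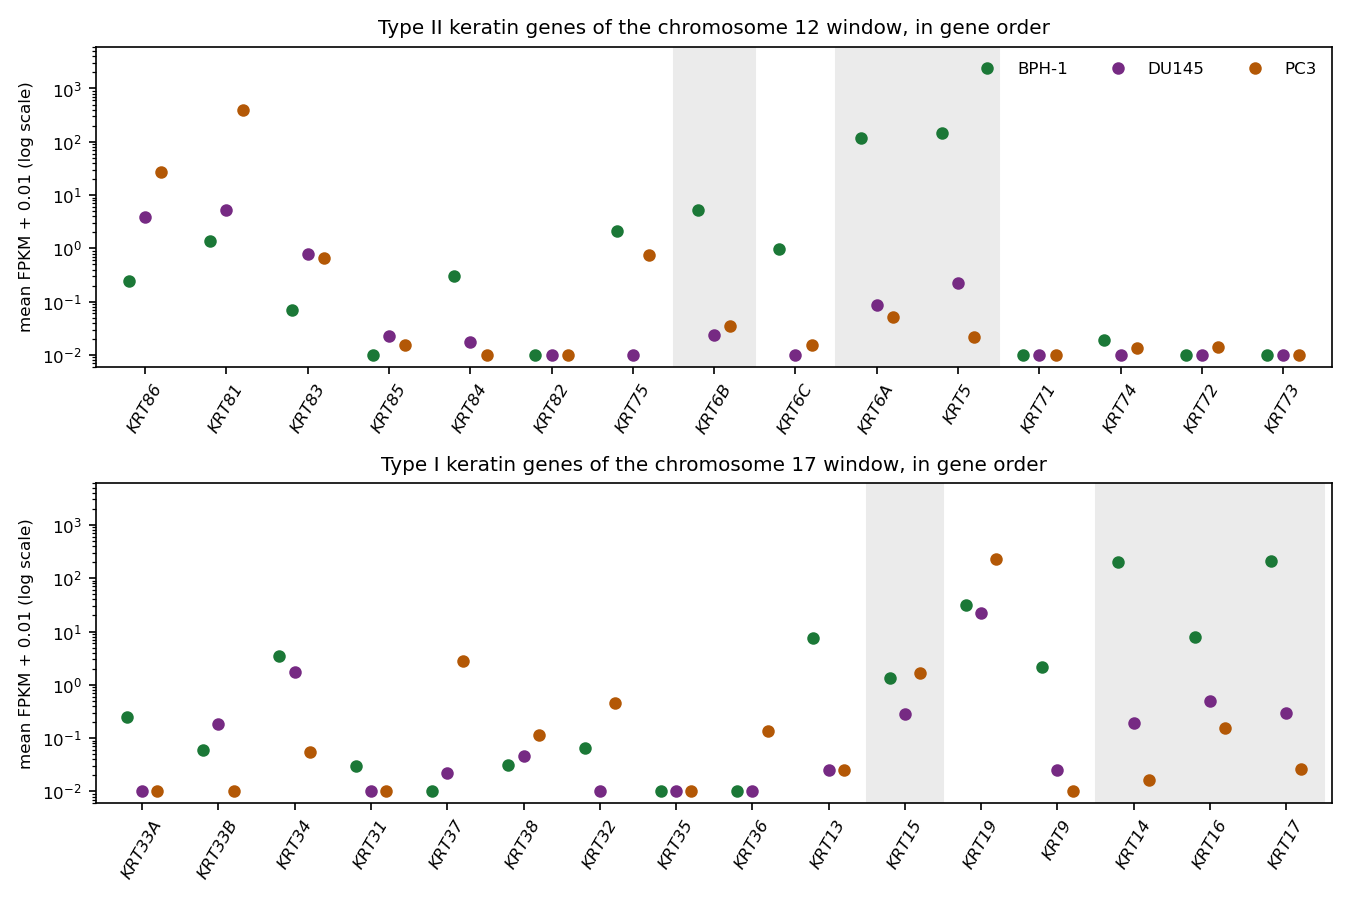
Keratin genes of the chromosome 12 and chromosome 17 windows in the order in which they lie. The y axis is the mean FPKM of 4 libraries plus 0.01 on a log scale, colours are the lines and grey bands mark the basal keratins described here. KRT15, at 1.67 FPKM in PC3, lies next to KRT19, at 232 FPKM in PC3, while KRT14, KRT16 and KRT17 at the end of the row are near 0 in that line.

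The keratins lie in 2 rows of genes, type II on chromosome 12 and type I on chromosome 17, and the basal genes are not a single block in either. On chromosome 12 the order is KRT75, KRT6B, KRT6C, KRT6A and KRT5. KRT75, a hair follicle keratin, was at 2.09 FPKM in BPH-1, 0.73 FPKM in PC3 and 0 FPKM in DU145, and KRT6C was at 0.604 to 1.72 FPKM in BPH-1 with no more than 0.0225 FPKM elsewhere. On chromosome 17 KRT15 lies between KRT13 and KRT19, and KRT9 separates KRT19 from KRT14. KRT13, a keratin of squamous mucosa, was at 7.51 ± 6.53 FPKM in BPH-1, 0.0157 FPKM in DU145 and 0.0151 FPKM in PC3, and every BPH-1 library lay above the others. KRT19, a keratin of simple epithelia and the neighbour of KRT15 on the other side, was at 32.0 ± 9.72, 22.7 ± 6.7 and 232 ± 58.9 FPKM in BPH-1, DU145 and PC3 (SD, n = 4 each). It was higher in PC3 than in BPH-1 (log2 fold change 2.84 ± 0.25 SE, limma adjusted p = 9.48e-06).

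Other keratins differed in both directions. Of 48 further keratin genes, 16 reached a mean of 1 FPKM in some line. In PC3 6 were higher and 7 lower than in BPH-1 of 16 tested, and in DU145 7 were higher and 5 lower of 16 (limma, adjusted p under 0.05), beside 67.6% of all genes in PC3 and 62.7% in DU145 called in either direction. Some were near 0 in both PCa lines, with KRT13 as given above and KRT9 at 2.15 ± 0.601 FPKM in BPH-1 (SD, n = 4), 0.0148 FPKM in DU145 and 0 FPKM in PC3. KRT7, a luminal and simple epithelial keratin, was at 1.09 FPKM in BPH-1, 218 FPKM in DU145 and 60.4 FPKM in PC3, and its log2 fold change was 6.69 ± 0.19 in DU145 and 4.87 ± 0.15 in PC3. KRT80 was at 8.5, 87.1 and 3.07 FPKM, and the hair keratin KRT81 at 1.35, 5.34 and 400 FPKM, in the same order of lines. KRT8 was at 31.1, 19.7 and 23.0 FPKM with lines that overlapped, and KRT18 was higher in DU145 than in BPH-1 (log2 fold change 0.89 ± 0.22 SE, limma adjusted p = 0.00614) but not called in PC3 against BPH-1 (adjusted p = 0.115). It was also lower in PC3 than in DU145 (log2 fold change -1.15 ± 0.21 SE, limma adjusted p = 0.00171). KRT8 missed the threshold in PC3 (adjusted p = 0.191) and in DU145 (adjusted p = 0.0801). Both KRT8 values, and KRT18 in PC3, passed it when libraries were rescaled to the same sum, and each also passed it without 1 library, BPH-1 replicate 3 or DU145 replicate 3 for KRT8 and PC3 replicate 4 for KRT18.

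The basal genes linked to p63 were lower in both PCa lines as well. This list holds 31 genes known as p63 targets, partners or basal markers, and none of the 8 genes above. In DU145 27 of 31 were lower and 2 higher than in BPH-1, beside 32.4% lower and 30.3% higher among all genes tested, and the median log2 fold change was -2.58 against -0.03. In PC3 25 were lower and 4 higher, beside 40.4% and 27.1%, with a median of -1.84 against -0.13. The counts of lower genes ranged from 20 to 28 in DU145 and from 17 to 26 in PC3 over all alternative settings, and leaving out DU145 replicates 1 and 2 gave 27 lower and 2 higher. These lists were put together with earlier results of the same libraries known, so their direction is a description and not independent support.

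Among the list genes furthest below BPH-1 in PC3 was COL17A1, a hemidesmosome collagen of basal cells (95.7 ± 6.47 FPKM in BPH-1, 0.276 ± 0.0899 FPKM in PC3). Others were FAT2 (20.1 ± 3.95 and 0.00316 ± 0.00632 FPKM) and TRIM29 (19.2 ± 4.59 and 0.0202 ± 0.0158 FPKM). The log2 fold changes of these 3 genes lay between -6.24 and -4.28. FAT2 and TRIM29 passed the read filter through BPH-1 alone, and all 3 were picked for their large differences, so no p-value is given. Higher in PC3 were the integrin chain ITGA3 (1.62 ± 0.17 SE), the Notch ligands JAG1 (0.35 ± 0.13) and JAG2 (1.12 ± 0.12), and the desmosome plaque gene PKP1 (0.86 ± 0.21), of which JAG1 alone lost its call under any setting, 6 of 17, among them without PC3 replicate 1 or 2 or BPH-1 replicate 3 or 4. Among those furthest below BPH-1 in DU145 were PKP1 (-5.09), COL17A1 (-4.69) and S100A2 (-4.56). ITGA3 (1.23) and the laminin chain LAMB3 (1.55) were higher in DU145 than in BPH-1. Thus PKP1 was at 0.14 FPKM in DU145 and 72.0 FPKM in PC3, a difference between the PCa lines of 5.95 ± 0.21 SE. PKP1 passed the read filter of that comparison through PC3, so no p-value is given. ITGB4, the hemidesmosome integrin, also separated them, at 2.84 FPKM in DU145 and 40.3 FPKM in PC3 (3.36 ± 0.28 SE, limma adjusted p = 1.53e-05). Other list genes were lower in PC3 than in DU145, among them LAMB3 (-2.76 ± 0.31 SE), BNC1 (-2.60 ± 0.44) and COL17A1 (-1.56 ± 0.17). Of 25 list genes tested between the PCa lines, 10 were higher and 6 lower in PC3, beside 20% and 28.3% of all genes.

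**Figure D5:**
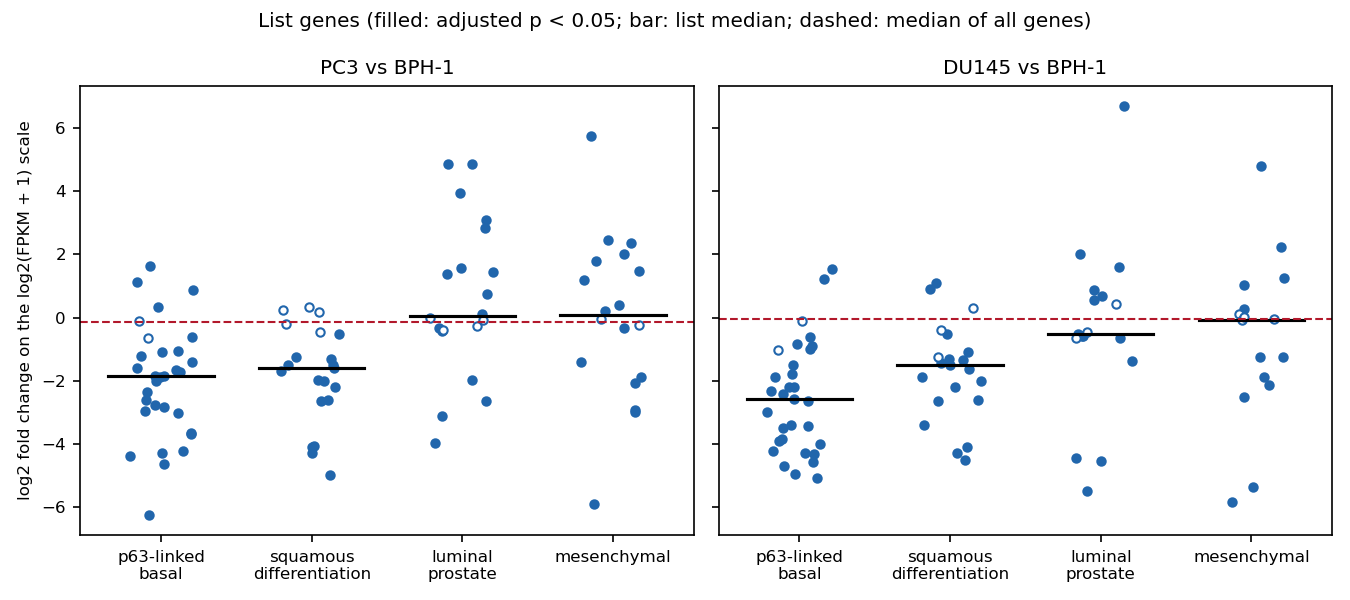
Log2 fold changes of listed genes in PC3 and DU145 against BPH-1. The y axis is the limma log2 fold change on the log2(FPKM + 1) scale; filled points have an adjusted p under 0.05, black bars are list medians and the dashed line is the median of all genes tested. The medians of the p63-linked genes are -1.84 in PC3 and -2.58 in DU145, while those of the luminal genes are 0.05 and -0.53.

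Most squamous differentiation genes that could be tested were also called lower in both PCa lines. Of 32 listed, 21 could be tested in each comparison. In PC3 16 were lower and 0 higher, and in DU145 16 were lower and 2 higher, beside 40.4% lower and 27.1% higher of all genes tested in PC3 and 32.4% and 30.3% in DU145. The median log2 fold changes were -1.60 and -1.49. SPRR1A and SPRR1B, precursors of the cornified envelope, were at 26.0 ± 26.1 and 28.4 ± 26.4 FPKM in BPH-1 and at 0 FPKM in all libraries of both PCa lines. CSTA was at 32.3, 0.447 and 0.0246 FPKM and IVL (involucrin) at 23.4, 0.607 and 0.0179 FPKM in BPH-1, DU145 and PC3. KRT10, a keratin of suprabasal epidermis, went the other way in DU145, at 18.1 FPKM against 7.88 FPKM (log2 fold change 1.10 ± 0.26 SE, limma adjusted p = 0.00403). A filter of 10 reads in every library, which a gene close to 0 in a PCa line cannot pass, left 2 lower genes in PC3 and 4 in DU145. Genes such as SPRR1A and SPRR1B passed the main filter through BPH-1 alone and could only be called lower. Nothing is therefore read from these counts.

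Luminal and mesenchymal genes differed from BPH-1 in both directions. Of the luminal list, 10 were higher and 6 lower of 20 tested in PC3, and 6 higher and 8 lower of 17 in DU145, beside the shares of all genes given above, 27.1% higher and 40.4% lower in PC3 and 30.3% and 32.4% in DU145. HOXB13, a prostate homeobox gene, was at 74.3 ± 5.18 FPKM in PC3, 1.61 ± 0.26 FPKM in BPH-1 and 0 FPKM in DU145, and FOXA1, a luminal pioneer factor, was at 36.0, 1.51 and 6.33 FPKM in the same order. This list also holds KRT7, KRT8, KRT18 and KRT19. EPCAM and CDH1 were lower in both PCa lines than in BPH-1 (log2 fold changes between -5.50 and -2.63). Of the mesenchymal list, 9 were higher and 7 lower of 18 tested in PC3 and 5 higher and 7 lower of 16 in DU145, beside the same shares. In PC3 against DU145, 14 luminal genes were higher and 4 lower of 19 (11 and 4 without DU145 replicates 1 and 2) and 8 mesenchymal genes were higher and 3 lower of 18, beside 20% higher and 28.3% lower of all genes tested, with medians of 0.69 and 0.09 against -0.05. Over all alternative settings these higher counts ran from 7 to 15 and from 4 to 8. In DU145 against BPH-1 the luminal counts ran from 3 to 7 higher and from 4 to 10 lower. The mesenchymal counts against BPH-1 ran from 5 to 10 higher and 5 to 8 lower in PC3, and from 3 to 5 and 4 to 7 in DU145. VIM was higher in both PCa lines than in BPH-1, by 5.75 ± 0.13 SE in PC3 and 4.80 ± 0.15 SE in DU145, while SPARC, which encodes a matrix protein, had log2 fold changes of -5.91 and -5.84.

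The genes whose profiles over the 12 libraries lay nearest to those of the 8 genes were found among 14334 protein-coding genes, by the root-mean-square distance of log2(FPKM + 0.1) after centring each gene. KRT5, KRT14 and KRT17 were nearer to each other (0.32 to 0.40) than to any other gene, and KRT6A was next (0.67 to 0.69). Outside the group the nearest genes to KRT5, KRT14 and KRT17 were IL1A, OLR1 and CCND2, at distances of 0.86 to 1.18, and those of KRT6A were IL1A, OLR1 and AMTN. IL1A, an epithelial cytokine gene, was at 130 FPKM in BPH-1, 0.239 FPKM in DU145 and 0.132 FPKM in PC3. TP63 lay closest to GRHL2 (0.20), RNASE7 (0.22) and HOXD10 (0.23), and GRHL2, an epithelial transcription factor gene, was at 12.7, 0.0147 and 0.0201 FPKM in BPH-1, DU145 and PC3. KRT6B lay closest to SPRR3, KLK10 and LY6D (0.53 to 0.55), and KRT16 to NGFR, TMPRSS13 and WNT10A (0.49 to 0.58). KRT15 was the most distant member, between 2.23 and 4.85 from the other 7, and its nearest genes were FA2H, DBP and GM2A (0.35 to 0.39). The libraries of a line share their cells, so these distances mostly describe 3 lines and carry no test.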

How the data were processed

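The authors sequenced 12 libraries, 4 each of BPH-1, DU145 and PC3, and deposited 1 value per gene and library with GRCh38 coordinates. The authors' processing notes name CASAVA 1.8, HISAT2 2.1.0 and edgeR. The counting program and the use of strand are not given in the sources used here, so reads of a gene and an antisense partner may not be separated. No unit stands in the header, and the deposited numbers were taken as FPKM from their steps. With the lengths of all distinct exons of GENCODE 29 added up, 92.3% to 94.0% of low values came out as whole reads to within 0.02, against 17.9% to 21.4% with merged exons, which gave the depth of each library. For KRT17 the steps gave 5545 bases and the annotation 6909, which bears on its reads and not on its FPKM. No length was found for 263 genes, which were not tested, and 0 columns were left unassigned.

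Each pair of lines was compared with limma 3.58.1 (R 4.3.3, trended variance prior) on log2(FPKM + 1), a scale that understates changes of low genes. Genes were kept at 10 reads or more in 4 libraries, scaled to the median depth, with 15 reads in all. P-values were adjusted by Benjamini-Hochberg over all genes tested, and a call is an adjusted p under 0.05. Ratios of the 8 genes compare reads relative to depth over 4 libraries with 95% exact binomial limits, and a group at 0 reads was set to a floor of 3 reads. Libraries of a line always differed beyond counting noise (18 pairs, chi-square 20.5 to 300 per gene). Alternatives were other filters, pseudocounts and scalings, 1 fit over all lines, a replicate block, voom on recovered reads and libraries left out.

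Named were the 8 genes, up to 4 listed genes per direction and comparison with the largest change among called genes without overlap, markers (KRT8, KRT18, CDH1, EPCAM, VIM, TP73), other keratins with a mean of at least 1 FPKM, and 3 profile neighbours per gene. KRT6C, the blood cell genes and some list genes were added after their values were seen. The 8 genes and all lists were chosen with earlier results of these data known. Some genes that this rule names are not reported here. Promoters of the other 6 genes were not used here. Python 3.11.15 with pandas 2.3.3, numpy 2.4.6, scipy 1.17.1, Biopython 1.88 and matplotlib 3.10.9 did the rest.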

Additional observations from a re-analysis of the deposited data

Results flagged for a closer look

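Within the 24 groups of 4 libraries formed by the 8 genes and 3 lines, 2 libraries lay far from the others of their line. KRT6B in DU145 replicate 3 was the only DU145 library above 0, with 2 reads, so that its gap to the next library took up the whole range (gap over range of 1). KRT14 in PC3 replicate 4 was likewise the only PC3 library above 0, with 1 read and a gap over range of 1. Where a single library holds reads the gap over range is 1 by construction, so the rate of about 1 in 20 groups that chance marks among continuous values does not apply, and nothing is read from either.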

How the results depend on the processing

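Of 11085 genes called in PC3 against BPH-1, 10666 in DU145 against BPH-1 and 7936 in PC3 against DU145, the counts stayed within 1.5 times under every setting except an added limit of an absolute log2 fold change over 1, which left 4429, 4894 and 3177 by its own construction. Leaving out 1 library at a time gave 10601 to 11320, 9617 to 11458 and 7019 to 8239. Leaving out DU145 replicates 1 and 2, chosen after the data were seen, gave 9558 and 6221 in the comparisons with DU145. Rescaling to the same sum moved the median log2 fold change of all genes by -0.16 in PC3 and -0.14 in DU145 against BPH-1, and lowered the share of higher calls from 40.2% to 30.3% and from 48.4% to 38.6%. The replicate numbers did not pair the libraries in a consistent direction. Correlations of same-numbered libraries lay between -0.153 and 0.122 in the comparisons with BPH-1. In PC3 against DU145 they were large in both directions, from -0.694 to 0.557, and the source of this was not tested. With the replicate block 10733, 10131 and 6747 genes were called.

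No difference of the 8 genes that separated 2 lines changed sign under any setting. Of 304 recomputed differences, 280 moved by less than 1 SD of the libraries and 24 by more, 22 with a pseudocount of 0.1 and 2 with rescaling to the same sum. For 60 named list genes and markers, 128 of 136 calls were kept under all settings in which the gene was tested, and 15 of 32 comparisons without a call stayed without one. In 4 of these 32 the direction changed under some setting, and in 0 of the 136. Depth limits what can be said of KRT5, KRT6A, KRT6B, KRT14, KRT17 and TP63 in PC3 and in DU145 replicates 3 and 4, where 0 to 16 reads per gene were found.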
